A study of Mus musculus with 20 samples.

Results

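The 9 genes described here encode proteins of the Z-disc, or proteins that muscle makes in response to stretch: Csrp3, Ankrd2, Ankrd1, Xirp1, Fhl1, Actn2, Myoz2, Myoz1 and Tcap. They were chosen with earlier results of these data known, and their probe sets were found by gene symbol in the platform's annotation. They carry 11 probe sets, of 12393 genes and 22626 probe sets that are not controls. All 11 lay above the filter on low intensity, as did 13575 probe sets of the whole array. RNA from skeletal muscle of 20 mice was hybridised to Affymetrix 3' arrays, 1 array per mouse. There were 4 groups of 5 mice: trained transgenic mice (TG trained, titles TGT), untrained transgenic mice (TG untrained, TGUT), trained wild-type mice (WT trained, WTT) and untrained wild-type mice (WT untrained, WTUT). The series title names the transgene only as over-expressed MHC-I and the training as endurance exercise. The labels give no construct, promoter, muscle, strain, sex, age, training protocol or batch. The description field calls every sample transgenic and trained, which conflicts with the titles of all groups but TG trained. The genotype and training state of every array therefore rest on its title and source name.

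Intensities are the authors' values on a linear scale. The array medians ran from 157 to 175, near 1 level, so no further scaling was applied. Whether the authors had scaled the arrays is not stated. All 5 skeletal muscle markers were far above the filter, with Ckm between 17808 and 18926, and of 5 heart markers only Nppa passed it, while Myh6, the heart's main myosin heavy chain, stayed between 17.8 and 52.4. MHC-I can abbreviate either of 2 gene families, and a gene of each was read. H2-K1, a class I heavy chain of the major histocompatibility complex, averaged 1067 ± 411 and 1069 ± 201 in TG trained and TG untrained mice, and 1222 ± 345 and 1102 ± 307 in WT trained and WT untrained mice (SD, n = 5 each). Myh7, the slow myosin heavy chain, averaged 395 ± 75.4 and 474 ± 202 in the transgenic groups, against 1259 ± 566 and 1254 ± 928 in the wild-type groups. Neither gene had a higher mean in a transgenic group than in the wild-type group of the same training state. H2-D1 and B2m were read beside H2-K1, and 0 of these 3 were called in transgenic against wild-type mice averaged over training. Over-expression was thus not seen at these probe sets. The labels do not say which gene the transgene carries, and whether these probe sets bind its RNA is not known, so these values do not settle the genotype labels.

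The Z-disc is the plate at each end of a sarcomere where thin filaments of neighbouring sarcomeres are cross-linked and where titin and nebulin are anchored. Actn2, sarcomeric alpha-actinin, is the cross-linker. Myoz1 and Myoz2 (calsarcin-2 and calsarcin-1) bind alpha-actinin and the phosphatase calcineurin, Myoz1 in fast fibres and Myoz2 in slow fibres and heart. Tcap (telethonin) caps the ends of paired titin molecules and binds Csrp3. Csrp3 (muscle LIM protein) and the ankyrin repeat proteins Ankrd2 (Arpp) and Ankrd1 (CARP) lie at the Z-disc or on titin and are also found in nuclei. Both ankyrin repeat proteins are known to be induced by stretch of skeletal muscle. Xirp1 (Xin) binds actin filaments at muscle attachment and remodelling sites, and Fhl1 is a LIM protein that binds titin and is linked to muscle growth.

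The start regions of the 4 members that were lower in transgenic mice below are shown because these genes were low together. Each is the stretch from 250 bases before to 50 bases after a transcription start in RefSeq for assembly GRCm38.p6, and 6 of the 9 members had such an entry, with 8 start regions between them. Capitals mark E-boxes, the letters CANNTG that MyoD-family factors can bind, which read the same on both strands.
Csrp3, start 1, chr7:48843622-48843921, minus strand: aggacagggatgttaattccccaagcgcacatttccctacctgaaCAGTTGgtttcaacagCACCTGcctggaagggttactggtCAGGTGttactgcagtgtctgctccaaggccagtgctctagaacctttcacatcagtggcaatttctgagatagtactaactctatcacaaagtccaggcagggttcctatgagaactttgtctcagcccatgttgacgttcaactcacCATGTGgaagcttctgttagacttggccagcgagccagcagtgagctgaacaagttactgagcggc
Csrp3, start 2, chr7:48848002-48848301, minus strand: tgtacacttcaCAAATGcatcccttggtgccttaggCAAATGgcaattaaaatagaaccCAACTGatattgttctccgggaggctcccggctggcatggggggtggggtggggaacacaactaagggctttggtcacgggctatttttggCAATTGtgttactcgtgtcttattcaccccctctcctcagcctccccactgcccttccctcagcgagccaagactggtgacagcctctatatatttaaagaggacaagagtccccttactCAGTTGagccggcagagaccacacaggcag
Ankrd2, chr19:42035777-42036076, plus strand: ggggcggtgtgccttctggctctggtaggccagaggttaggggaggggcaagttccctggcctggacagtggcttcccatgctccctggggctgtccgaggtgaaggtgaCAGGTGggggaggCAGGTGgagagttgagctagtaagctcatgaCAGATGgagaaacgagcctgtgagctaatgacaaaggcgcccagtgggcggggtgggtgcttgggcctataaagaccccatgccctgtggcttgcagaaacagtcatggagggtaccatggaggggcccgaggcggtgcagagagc
Myoz2, chr3:123034938-123035237, minus strand: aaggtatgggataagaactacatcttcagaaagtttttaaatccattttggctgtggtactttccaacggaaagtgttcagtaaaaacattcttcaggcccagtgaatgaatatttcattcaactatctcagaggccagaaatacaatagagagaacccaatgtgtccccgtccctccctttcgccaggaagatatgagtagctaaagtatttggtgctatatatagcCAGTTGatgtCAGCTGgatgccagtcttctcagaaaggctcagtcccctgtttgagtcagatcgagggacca
Actn2, chr13:12340683-12340982, minus strand: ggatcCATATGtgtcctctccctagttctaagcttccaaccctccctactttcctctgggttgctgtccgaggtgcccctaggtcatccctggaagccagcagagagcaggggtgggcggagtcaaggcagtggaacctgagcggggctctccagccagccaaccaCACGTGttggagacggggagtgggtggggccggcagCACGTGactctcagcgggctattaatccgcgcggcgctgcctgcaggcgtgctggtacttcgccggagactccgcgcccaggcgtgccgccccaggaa

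The Csrp3 starts held 4 and 5 E-boxes, Ankrd2 and Actn2 3 each and Myoz2 2. An E-box occurred in 72.3% of all 32851 start regions of this length, so its presence does not set these genes apart. The Myoz2 region also held the box of the factor MEF2, first base at -33 from the start and not overlapping an E-box, which 3.19% of all start regions hold. Among the other members, Ankrd1 had the M-CAT motif CATTCC, the letters of TEAD-factor sites searched on both strands, at -210 and -123, and 14.7% of all start regions hold it. The first of 2 Fhl1 start regions had the CArG box of serum response factor at -102, which 1.63% of all start regions hold. A match shows only that the letters are there.

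Csrp3 had the largest transgenic difference of the 9 genes in untrained mice and averaged over training, though not in trained mice, where Myoz2 and Ankrd2 differed by as much or more. Its intensity was 1798, 1699, 1107, 1379.7 and 2417 in the 5 TG trained mice, and 939.7, 213, 747, 182 and 1724 in the 5 TG untrained mice. WT trained mice had 2672, 4990.1, 2220.0, 4609.9 and 3505, and WT untrained mice had 2828, 3619.7, 4232, 3865 and 4019. Every untrained transgenic mouse was below every wild-type mouse of either kind, and within the untrained transgenic group TGUT-139 and TGUT-146 were far below the other three. Differences were tested with limma on log2(intensity + 66.7), with Benjamini-Hochberg adjustment over 13575 probe sets, so each fold change is on that scale and understates the change of dim probe sets. In untrained mice Csrp3 fell by 2.56 ± 0.40 log2 (SE), or 5.91-fold lower in transgenic mice (adjusted p = 0.0171). An exact two-sided permutation test of this comparison gave 0.00794, the smallest p that 5 mice against 5 can give. Averaged over both training states it fell by 1.81 ± 0.29 log2 (adjusted p = 0.00357).

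Ankrd2 was likewise lowest in untrained transgenic mice. It had 1474, 2009.9, 1433, 1102 and 1518 in TG trained mice, and 2053, 705, 615, 849 and 996 in TG untrained mice. WT trained mice had 2583, 4042, 1886, 4149.6 and 3743, and WT untrained mice had 2898, 2732, 3293 and 3506, with no value deposited for WTUT-142, which the fit left out. Among untrained mice the genotypes did not overlap, but TGUT-131 stood well above the other untrained transgenic mice. Ankrd2 fell by 1.64 ± 0.27 log2 in untrained transgenic against untrained wild-type mice (limma, adjusted p = 0.0258) and by 1.34 ± 0.19 log2 averaged over training (adjusted p = 0.0015).

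Actn2, the cross-linker itself, was lower in transgenic mice by less. Its 5 TG trained mice had 3480.2, 4244, 3443, 3789 and 4435, and its TG untrained mice had 3517, 2528, 2969.7, 2044 and 4189. WT trained mice had 5079, 5639.6, 4031, 6005 and 5905, and WT untrained mice had 4460.4, 4505, 5145, 4831 and 4552. All trained and untrained transgenic mice were below all untrained wild-type mice, whose range was narrow. Averaged over training Actn2 fell by 0.55 ± 0.10 log2, 1.46-fold lower in transgenic mice (limma, adjusted p = 0.0126). In untrained mice alone the difference was -0.65 ± 0.14 log2 (adjusted p = 0.0975), which missed the threshold.

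Myoz2, the slow-fibre calsarcin, was also called. TG trained mice had 504, 416, 418, 719 and 452, and TG untrained mice had 919.6, 449.6, 592, 172 and 683. WT trained mice had 1125, 1428, 856, 1812 and 1386, and WT untrained mice had 1519.8, 805, 1180.5, 1124 and 718. Here the genotypes were apart among trained mice and overlapped among untrained mice, the reverse of Csrp3, Ankrd2 and Actn2. However, among trained mice the overlap of Csrp3, Ankrd2 and Actn2 came from wtt-137 only, the array with the most empty cells (822). Without wtt-137 the trained difference was called for Ankrd2 (limma, adjusted p = 0.0359) and Myoz2 (0.0401). Csrp3 and Actn2 were called in trained mice in 0 of the 20 fits that each omitted 1 array. Without both arrays richest in empty cells, wtt-137 and TGT-133, neither Ankrd2 nor Myoz2 was called in trained mice. The trained difference was also called for Ankrd2 without TGUT-131 (0.0490) and for Myoz2 without TGUT-146 (0.0198). These are untrained mice, so the differences stayed at -1.05 and -1.27 log2 and only the estimate of the shared spread changed. Averaged over training Myoz2 fell by 1.11 ± 0.21 log2 (limma, adjusted p = 0.0125). The difference was -1.27 ± 0.29 log2 in trained mice (adjusted p = 0.122) and -0.95 ± 0.29 log2 in untrained mice (adjusted p = 0.318). The test of the gap between these differences, the interaction, gave an adjusted p of 0.9999.

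**Figure D1:**
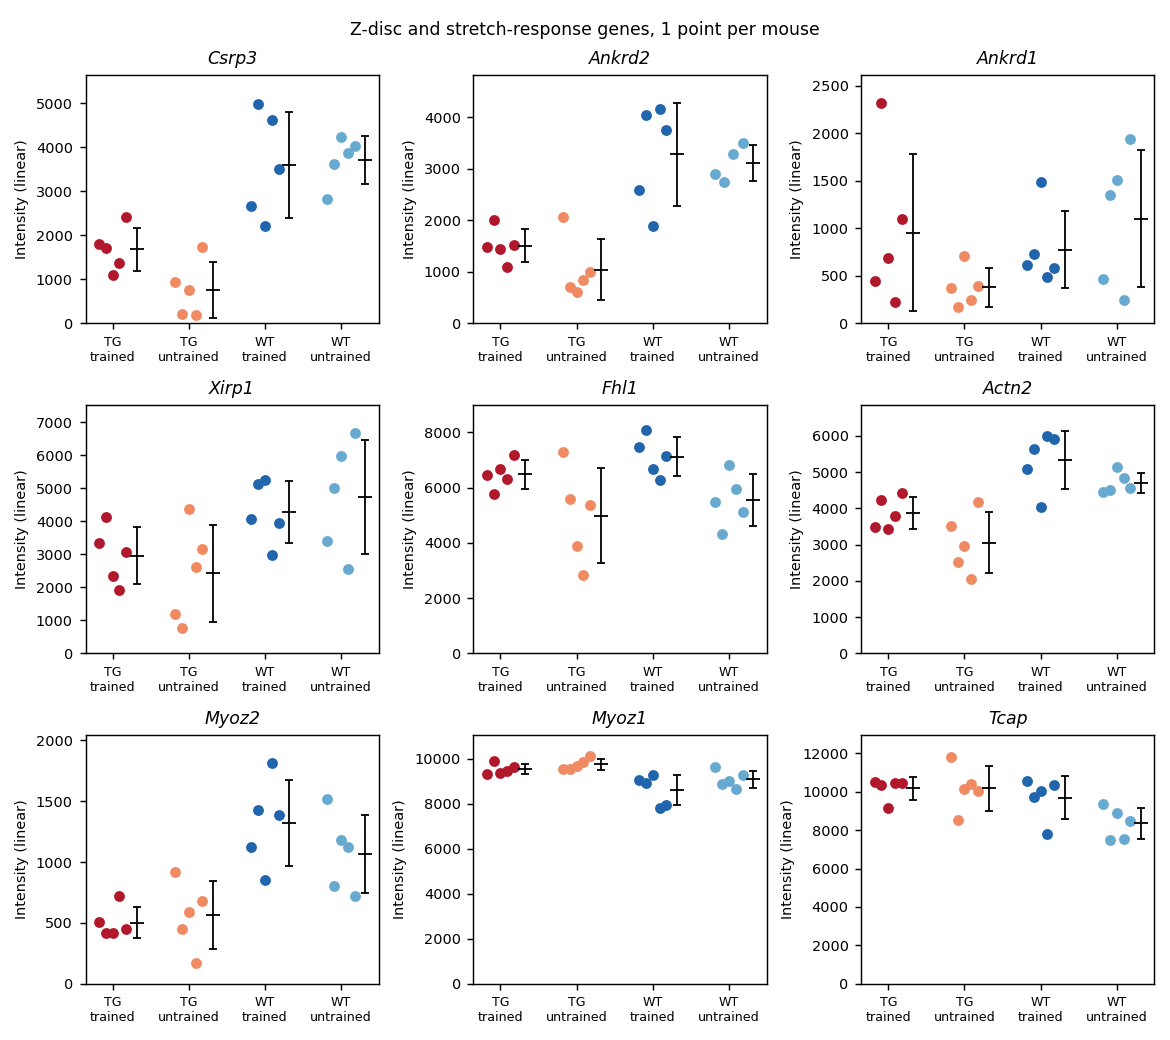
Intensity (linear scale, from 0) of the 9 genes in TG trained, TG untrained, WT trained and WT untrained mice, 1 point per mouse, with the mean and SD of each group as a bar beside the points; each gene is shown by its brightest probe set. The Csrp3 points of untrained transgenic mice end at 1724 and those of untrained wild-type mice begin at 2828, while the Myoz1 points of all groups lie between 7804 and 10119.

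Of the stretch-response members, Xirp1 had lower means in both transgenic groups and Ankrd1 in the untrained one only, each with wide spread, and neither passed the test. Xirp1 stood at 3348, 4123, 2333, 1923 and 3059.7 in TG trained and at 1202, 782, 4364, 2611 and 3171 in TG untrained mice. WT trained mice had 4084, 5144, 5251, 2983 and 3958, and WT untrained mice had 3419, 5026, 5978, 2549 and 6681. The groups overlapped in both training states, and the averaged difference was -0.82 ± 0.26 log2 (limma, adjusted p = 0.111). Ankrd1 had 442, 2315, 689.6, 224 and 1099 in TG trained and 371, 173, 704, 249 and 388 in TG untrained mice. Its WT trained mice had 611, 725.5, 1485, 485 and 577, and its WT untrained mice had 463, 1354, 1509.8, 243 and 1938. Untrained wild-type mice alone ran from 243 to 1938, and the averaged difference was -0.59 ± 0.38 log2 (adjusted p = 0.435). The second Ankrd1 probe set followed the first over the 20 arrays (r = 0.99) and gave -0.74 ± 0.42 log2 (adjusted p = 0.371).

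Fhl1 means were close between genotypes and higher in the trained groups, with no call. TG trained mice had 6466, 5777, 6692, 6305.5 and 7200.1, and TG untrained mice had 7309, 5579, 3879.6, 2824 and 5356. WT trained mice had 7464, 8073, 6680.3, 6288 and 7135, and WT untrained mice had 5468, 4324, 6836, 5963.5 and 5116. The trained groups sat in a narrower, higher band, but each overlapped its untrained group. The training difference averaged over genotypes was 0.41 ± 0.12 log2 (limma, adjusted p = 0.0615), and the averaged transgenic difference was -0.17 ± 0.12 log2 (adjusted p = 0.507).

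Myoz1 and Tcap, the calsarcin of fast fibres and the titin cap, had slightly higher means in transgenic mice and were not called in the fit as reported. Myoz1 ran from 9335 to 9877 in TG trained and from 9530.4 to 10119 in TG untrained mice, against 7804 to 9277 in WT trained and 8634 to 9614.5 in WT untrained mice. Trained genotypes did not overlap, and the averaged difference was 0.13 ± 0.032 log2 (limma, adjusted p = 0.0554). It was called higher in 5 other settings (adjusted p 0.0258 to 0.0497) and without wtt-137 (0.0188) or WTUT-130 (0.0478). Its second, much dimmer probe set gave 0.39 ± 0.11 log2 (adjusted p = 0.0701), and the pair of probe sets correlated at r = 0.78 over the arrays. Tcap ran from 9133 to 10522 in TG trained and from 8520.3 to 11785 in TG untrained mice, against 7786 to 10563 in WT trained and 7506 to 9361 in WT untrained mice. Its averaged difference was 0.18 ± 0.06 log2 (adjusted p = 0.141), and its probe set is of a kind that can bind several transcripts.

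Over the whole set, 4 of the 9 genes were called lower in transgenic mice averaged over training and 0 higher, where 1.23% of all tested probe sets were called (44 higher, 123 lower). The members were chosen with earlier results of these data known, so such shares describe them and are not independent evidence. The median difference of the 9 was -0.59 log2, beside 0.0042 for all probe sets, and 7 of 9 had an unadjusted limma p under 0.05 (17.3% of all did). In untrained mice 2 of 9, Csrp3 and Ankrd2, were called lower, where 0.11% of probe sets were called, and the median was -0.95 log2. There 8 of 9 had an unadjusted p under 0.05, against 8.13% of all probe sets. In trained mice 0 of 9 passed limma's adjusted threshold, where 0.0516% of probe sets did, 5 of 9 had an unadjusted p under 0.05, against 12.5% of all probe sets, and the median was -0.45 log2. Csrp3 differed by -1.05 ± 0.40 log2 in trained mice (adjusted p = 0.307) and Ankrd2 by -1.05 ± 0.26 log2 (adjusted p = 0.160). The averaged calls of Csrp3, Ankrd2, Myoz2 and Actn2 held whichever of the 20 arrays was omitted. The untrained call of Csrp3 was lost without TGUT-139 (adjusted p = 0.0616), WTUT-135 (0.0516) or WTUT-138 (0.0510), that of Ankrd2 without any of 6 arrays, TGUT-139, TGUT-146, WTUT-130, WTUT-135, WTUT-136 and WTUT-138 (0.0516 to 0.0800), and both when only the 2 compared groups entered the fit (0.244 each).

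**Figure D2:**
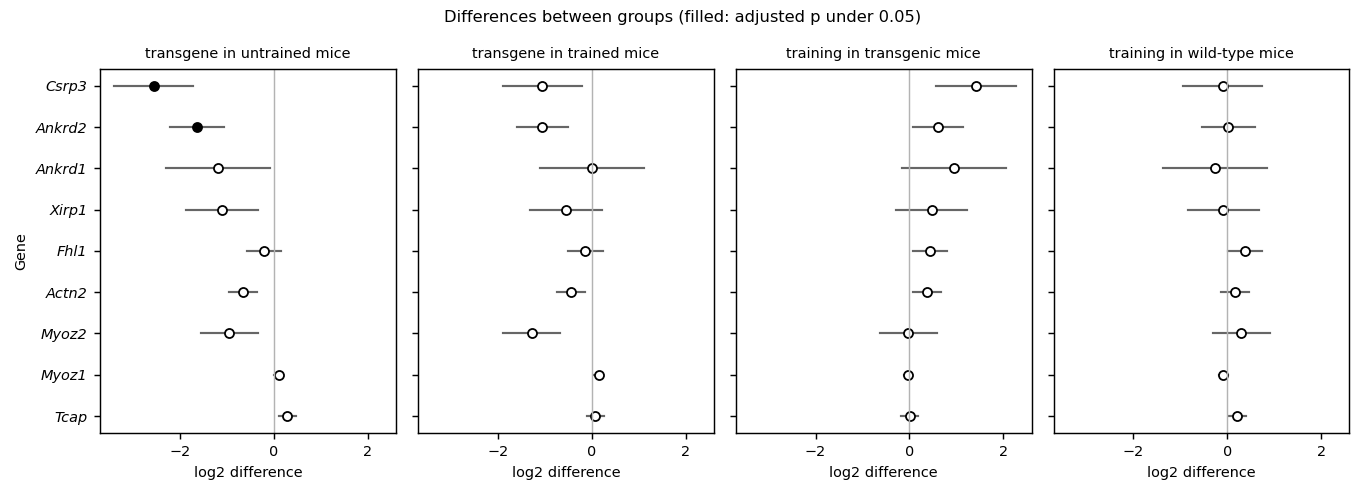
Log2 differences of the 9 genes (horizontal axis) for the transgene in untrained mice, the transgene in trained mice, training in transgenic mice and training in wild-type mice, as transgenic minus wild-type or trained minus untrained; points are limma estimates, lines their 95% intervals, and filled points have an adjusted p under 0.05. Filled points are those of Csrp3 (-2.56) and Ankrd2 (-1.64) in untrained mice, and the interval of Csrp3 for training in transgenic mice runs from 0.57 to 2.26.

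In trained transgenic mice the means of several members lay nearer to the wild-type level than in untrained transgenic mice, but none of these training differences was called. Csrp3 averaged 1680.0 ± 494 in TG trained mice, against 761 ± 631 in TG untrained mice (SD, n = 5 each), and the groups overlapped through TGUT-147. The training difference in transgenic mice was 1.42 ± 0.40 log2, 2.67-fold (limma, adjusted p = 0.0842; exact two-sided permutation p = 0.0397). In wild-type mice the corresponding difference was -0.10 ± 0.40 log2, with a 95% interval from -0.94 to 0.75. The interaction of transgene and training was 1.51 ± 0.57 log2 for Csrp3 (unadjusted p = 0.0155, adjusted p = 0.9999), so unequal effects of training in the genotypes were not shown. The training difference in transgenic mice was called without TGUT-145 (adjusted p = 0.0476) and when arrays were weighted by quality (0.0162).

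The other members had the following training differences in transgenic mice, none called. Ankrd2 differed by 0.61 ± 0.26 log2 (limma, adjusted p = 0.232), Ankrd1 by 0.95 ± 0.53 (adjusted p = 0.385) and Xirp1 by 0.47 ± 0.36 (adjusted p = 0.564). Fhl1 differed by 0.44 ± 0.17 log2 (adjusted p = 0.195) and Actn2 by 0.38 ± 0.14 (adjusted p = 0.186). Myoz2 was at -0.028 ± 0.29 log2, Myoz1 at -0.032 ± 0.045 and Tcap at 0.0060 ± 0.087. In all, 7 of 9 differences were above 0 with a median of 0.44 log2, 4 had an unadjusted p under 0.05 (17.4% of all probe sets did), and 0 of 9 were called where 0.309% of probe sets were. In wild-type mice 5 of 9 were above 0 with a median of 0.024 log2, 2 had an unadjusted p under 0.05 (7.87% of all probe sets did), and 0 of 9 were called, as was 0% of the whole array. Averaged over genotypes 0 of 9 were called, where 4.99% of probe sets were, with 3 at an unadjusted p under 0.05 (20.7% of all). For the interaction 0 of 9 were called and 0% of all probe sets, with 1 member at an unadjusted p under 0.05 (2.91% of all).

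Trained transgenic mice were also set directly against untrained wild-type mice, the comparison that asks how far each gene remained from the untrained normal level. It shares its mice with the contrasts above, so its values are a second view of the same arrays. Ankrd2 was still lower, by 1.03 ± 0.27 log2, and was the 1 member of 9 called (limma, adjusted p = 0.0333), where 6.31% of all probe sets were called. This call was lost without any of 9 single arrays, TGT-128, TGT-133, TGT-140, TGT-143, WTUT-130, WTUT-135, WTUT-136, WTUT-138 and WTUT-142 (adjusted p up to 0.0839). Csrp3 differed by -1.15 ± 0.40 log2 (adjusted p = 0.0924) and Actn2 by -0.28 ± 0.14 (adjusted p = 0.270), neither called. For each, all 5 TG trained mice were below all 5 WT untrained mice, but how many of all probe sets were apart in this way was not counted. Myoz2 differed by -0.98 ± 0.29 log2 (adjusted p = 0.05004) and Tcap by 0.29 ± 0.09 (adjusted p = 0.0515), both at the edge of the threshold. The median of the 9 was -0.28 log2, beside 0.016 for all probe sets.

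The 9 genes did not form a single pattern across mice. Deviations from the group means, over 20 arrays that share these 4 groups and their scaling, were followed for all 36 pairs of members as a description. Csrp3 and Actn2 moved together most closely, with r = 0.90 (Spearman's rho 0.85). Without the 2 arrays whose Csrp3 deviation lay farthest from the median deviation, TGUT-146 and TGUT-147, r was 0.80. TGUT-139 was kept there. The mice with the least Csrp3, TGUT-139 and TGUT-146, also had the 2 lowest Actn2 values. Within their group these 2 arrays had the most empty cells (52 and 83). They also had its highest log2 ratios of the 3' to the 5' Gapdh probe set (0.074 and 0.052), though WTUT-138 had 0.096. The part of array quality in these low values was not tested. Ankrd1 and Xirp1 had r = 0.71 (rho 0.75), and r = 0.67 without the 2 farthest arrays. Csrp3 and Ankrd2, the 2 genes called in untrained mice, had r = 0.49 (rho 0.61) over 19 arrays, and Csrp3 with Ankrd1 only r = 0.24. Myoz2 had r = 0.71 with Actn2 (rho 0.57) and r = 0.62 with Csrp3 (rho 0.54). Without the 2 farthest arrays these were r = 0.52 and r = 0.40. Myoz1 and Csrp3 had r = -0.074.

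**Figure D3:**
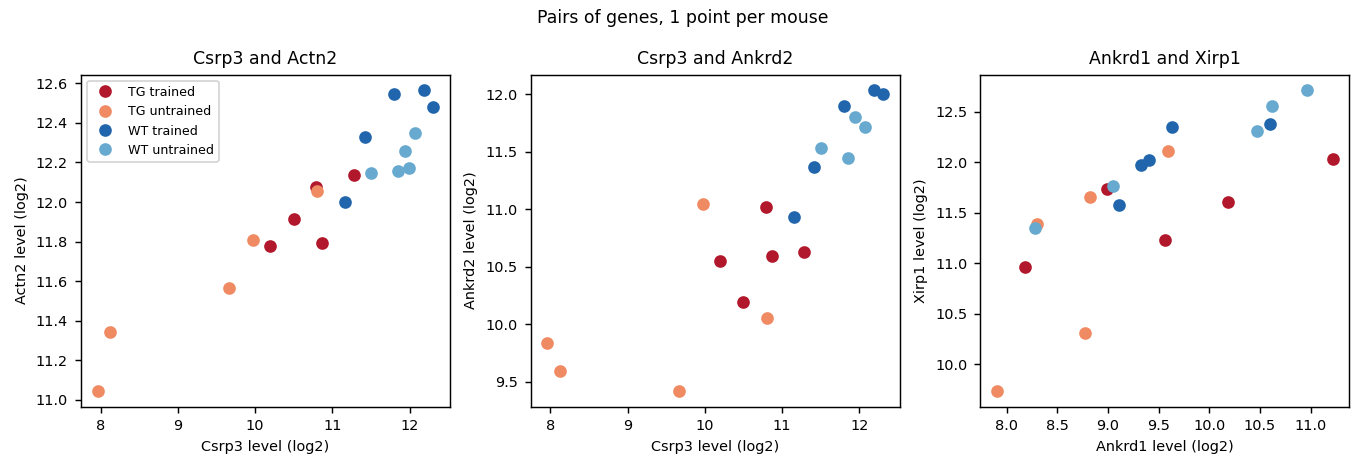
Log2(intensity + 66.7) of Csrp3 against Actn2, Csrp3 against Ankrd2, and Ankrd1 against Xirp1, 1 point per mouse, coloured by TG trained, TG untrained, WT trained and WT untrained. In the first panel the points lie along 1 line from the untrained transgenic mice at the low end to wild-type mice at the high end (r = 0.95 over all 20 arrays, group differences included).

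For the members called in any comparison, the 5 other genes with the highest correlation over all arrays were listed. This measure includes the group differences. For Csrp3 they were Hsph1, an Hsp110 chaperone (r = 0.89), Csrp1, a LIM protein related to Csrp3 (0.87), Pdlim1, an alpha-actinin-binding PDZ-LIM protein (0.84), the nuclear lamin gene Lmna (0.83) and Anxa2 (0.83), over 20 arrays. For Actn2 they were Csrp1 (0.90), Mrpl14 (0.89), Myl12a (0.88), Smtnl1 (0.87) and Hsph1 (0.86). Csrp1 was the 1 gene listed for each of Csrp3, Actn2 and Ankrd2. For Ankrd2, over 19 arrays, the list was Aatk (0.93), Myl12a (0.86), Ret (0.83), the slow troponin Tnni1 (0.81) and Csrp1 (0.81). Myoz2 had a different company, in which 3 of 5 genes encode slow-fibre proteins: Tnnt1 (0.93), Idh2 (0.92), Myl2 (0.92), Atp2a2 (0.92) and Nnt (0.91).

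Other Z-disc genes mostly did not share the transgenic difference. Of 25 Z-disc partners listed, 18 were tested and 2 were called lower in transgenic mice averaged over training, where 1.23% of all probe sets were called. The list median was 0.029 log2, and 8 of the 18 differences were below 0, against 48.3% of all probe sets. Bag3, a co-chaperone for filamin turnover at the Z-disc, averaged 1604 ± 91.0 and 1902 ± 249 in TG trained and TG untrained mice, against 2174 ± 167 and 2797 ± 748 in WT trained and WT untrained mice. It fell by 0.47 ± 0.09 log2 (limma, adjusted p = 0.0141). Pdlim1 averaged 714 ± 124 and 617 ± 141.4 in the transgenic groups, against 998 ± 181 and 908 ± 116 in the wild-type groups, and fell by 0.49 ± 0.10 log2 (adjusted p = 0.0221). Neither call was lost when any single array was omitted. The only Z-disc partner called for training averaged over genotypes was the giant spring protein Ttn, which fell by 0.14 ± 0.03 log2 in trained mice (adjusted p = 0.0122).

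Of 18 other titin-linked and stretch-responsive genes, 15 were tested and 1, Csrp1, was called lower with the transgene averaged over training (1.23% of all probe sets were called). The list median was -0.070 log2, and 12 of the 15 differences were below 0, against 48.3% of all probe sets. Csrp1 averaged 465 ± 76.8 and 381 ± 50.5 in TG trained and TG untrained mice, against 626 ± 88.4 and 531 ± 55.6 in WT trained and WT untrained mice, and fell by 0.40 ± 0.07 log2 (limma, adjusted p = 0.0108). In trained transgenic against untrained wild-type mice, Bag3 fell by 0.74 ± 0.13 log2 (adjusted p = 0.0051) and Fhl3, a LIM relative of Fhl1, by 0.84 ± 0.20 (adjusted p = 0.0219), each with no overlap between the groups. The Fhl3 call was lost without TGT-128, TGT-140, WTUT-135 or WTUT-142. Trim54 (MuRF3), a titin-binding ubiquitin ligase, fell with training averaged over genotypes by 0.26 ± 0.07 log2 (adjusted p = 0.0385), a call that held in 9 of 20 fits that each omitted 1 array. Since calsarcins bind calcineurin, 11 genes of calcineurin and its NFAT factors were listed. Of 10 tested, 1 fell with the transgene, Rcan2, an inhibitor of calcineurin, by 0.33 ± 0.07 log2 (adjusted p = 0.0339), which held in 10 of 20 such fits, and the list median was 0.031 log2.

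**Figure D4:**
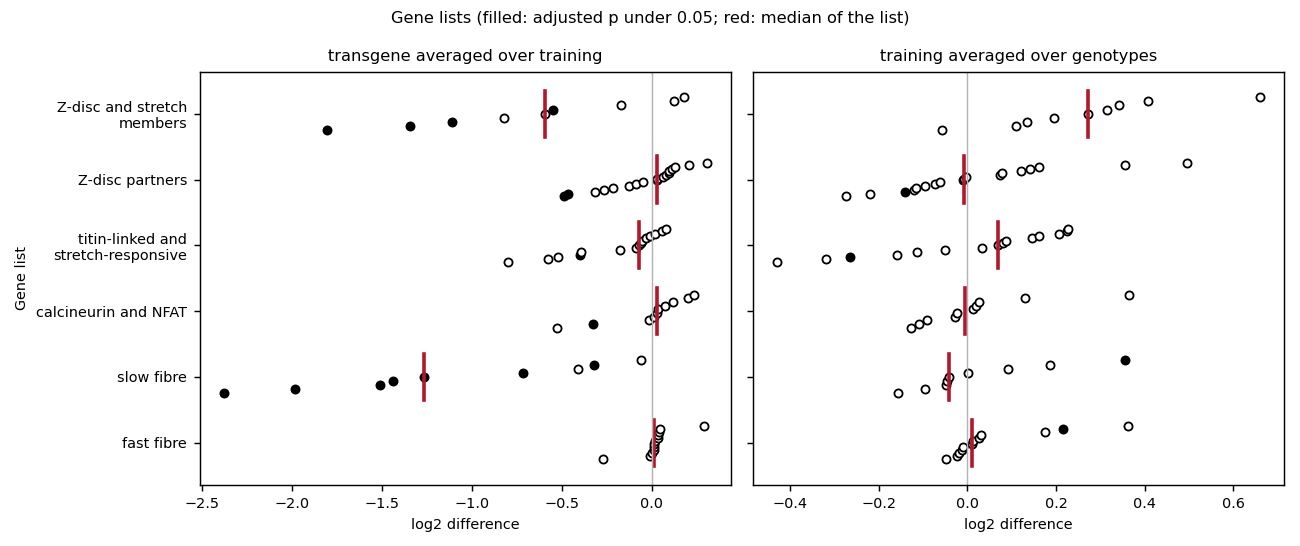
Log2 differences of single genes (points; filled, adjusted p under 0.05) in 6 gene lists, as transgenic minus wild-type averaged over training (left) and trained minus untrained averaged over genotypes (right), with the median of each list as a red line. On the left the medians are -0.59 for the 9 members, -1.27 for slow fibre genes and between -0.070 and 0.031 for the other 4 lists.

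Slow fibre genes moved with the transgenic difference of the members. Of 9 tested slow fibre genes, 7 fell averaged over training, with a median of -1.27 log2, and 0 of 12 fast fibre genes were called (limma, median 0.015). Myl2, the slow regulatory light chain, averaged 249.9 ± 111 and 336 ± 215 in TG trained and TG untrained mice, against 1805 ± 705 and 1774 ± 1036 in WT trained and WT untrained mice, and fell by 2.38 ± 0.28 log2 (adjusted p = 0.00032). Tnni1 averaged 152 ± 34.6 and 161 ± 48.7 in the transgenic groups, against 692 ± 272 and 516 ± 251 in the wild-type groups, and fell by 1.51 ± 0.18 log2 (adjusted p = 0.00032). Myh4, the fast IIb myosin heavy chain, was level at 14397 ± 618 and 14069 ± 712 in the transgenic groups, against 14021 ± 140 and 14101 ± 408 in the wild-type groups. In whole muscle, fewer cells of a type and less RNA per cell cannot be told apart, and the part of slow fibre content in the members' differences was not tested. Beside the training values, the mean log2 level of the slow fibre list had medians of 9.04 in TG trained and 9.05 in TG untrained mice, against 10.3 in WT trained and 10.2 in WT untrained mice, and 0 of its 9 genes were called for training in transgenic mice (median -0.15 log2). Averaged over genotypes 1 gene of each fibre list was called higher with training, and both are named here after their values were seen. Casq2, the calsequestrin of slow fibres and heart, differed by 0.36 ± 0.06 log2 (limma, adjusted p = 0.00421) and Myh1, the fast IIx myosin heavy chain, by 0.21 ± 0.05 (adjusted p = 0.0303). RNA integrity, read as the log2 ratio of the 3' to the 5' Gapdh probe set, averaged 0.01 in each of the 4 groups.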

How the data were processed

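Per the labels, skeletal muscle RNA of each of 20 mice was labelled with biotin and hybridised to 1 array. The authors deposited linear intensity values for 22690 probe sets, 64 of them controls. How they were summarised and scaled is not given in the sources used. Empty cells, 1745 in all, were left out of the fits. Groups came from titles and source names, not from the description fields, which call every sample transgenic and trained. Nothing says whether mice of a group shared a litter or cage. Precision is limited by the number of arrays. With no further scaling, 66.7 (the table's 20th percentile) was added to each value before log2. Probe sets under the 40th percentile of mean level (7.59 log2) were left out, and 13575 were tested.

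Tests were run in R 4.3.3 with limma 3.58.1, two-sided, with 4 group means, moderated variances with a trend (16 residual and 3.47 prior degrees of freedom) and Benjamini-Hochberg adjustment within each of 8 contrasts; a call is an adjusted p under 0.05. The test was tested on simulated data. Of a gene's probe sets the brightest tested one stands for it. All members were named; of the Z-disc partner, titin-linked and calcineurin lists, genes called, up to 4 per list and contrast; of the fibre lists, Myl2, Tnni1, Myh7 and Myh4. The 9 members and the gene lists were chosen with earlier results of these data known. Symbols come from the platform annotation. The alternatives were quantile normalization, median centring, other constants, filters, variance models and probe sets, array weights, the compared groups alone, the Gapdh ratio as a covariate, and arrays left out.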

Additional observations from a re-analysis of the deposited data

Results flagged for a closer look

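In 5 of 44 groups (11 probe sets by 4 groups), 1 mouse stood farther from its nearest neighbour, as a share of the group's whole range, than Dixon's 95% limit allows. The limit is 0.71 for 5 mice, and its higher value for 4 was used for the untrained wild-type mice with an Ankrd2 value. Chance flags about 1 group in 20. For Ankrd2, TGUT-131 was the highest untrained transgenic mouse at 2053.3. For Ankrd1, wtt-137 was the highest trained wild-type mouse at 1485.21 on the first probe set and at 1268.97 on the second, so 1 mouse accounts for both. TGT-140 was the highest trained transgenic mouse for Myoz2, at 719.165, with a gap just at the limit. For Tcap, TGT-133 was the lowest trained transgenic mouse at 9132.89. The arrays of wtt-137 and TGT-133 also have the most empty cells, 822 and 386, whose part in these values was not tested.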

How the results depend on the processing

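Of 72 differences (9 genes by 8 contrasts), 57 kept their direction in every other setting run for them (11 to 14 each) and with each of 20 arrays left out. The averaged transgenic calls of Csrp3, Ankrd2, Myoz2 and Actn2 kept direction and threshold in all of them. Members called for the averaged transgene numbered 5 with quantile normalization, the stricter filter, the Gapdh covariate or without the 2 arrays richest in empty cells, each adding Myoz1 (higher), 6 with array weights, adding Myoz1 and Xirp1 (lower, adjusted p = 0.0157), and 4 to 5 with 1 array left out, against 4 as reported. No paired analysis was possible because the groups share no mouse numbers. Members called in untrained mice numbered 4 with array weights, 3 with the Gapdh covariate (adding Actn2, adjusted p = 0.0428), 0 when only the compared groups entered the fit and 0 to 3 with 1 array left out, against 2 as reported. In trained mice they numbered 3 with array weights, 1 in the compared groups alone and 0 to 2 with 1 array left out, against 0. For training in transgenic mice the count was 1 with array weights and 0 to 1 with 1 array left out, and averaged over genotypes 1 with quantile normalization, 1 with the Gapdh covariate and 0 to 1 with 1 array left out, against 0 in both. In trained transgenic against untrained wild-type mice, where 1 was reported, the count was 2 with quantile normalization, with the table's median as the constant and without the 2 arrays richest in empty cells, 3 with the stricter filter and the Gapdh covariate, 4 with array weights, 5 in the compared groups alone and 0 to 3 with 1 array left out. Over the 13 or 14 settings run per contrast, the count of all probe sets called ran from 89 to 617 for the averaged transgene (167 as reported), 0 to 95 in untrained mice (15), 3 to 900 in trained mice (7), 1 to 2364 for training in transgenic mice (42), 0 to 90 for training in wild-type mice (0), 335 to 2716 for averaged training (678), 0 to 7 for the interaction (0) and 470 to 2488 for trained transgenic against untrained wild-type mice (857), with the highest count under array weights each time. The cause of these shifts was not tested. Reversed differences were small and not called (log2). With quantile normalization, training in transgenic mice gave 0.036 for Myoz1 and 0.014 for Myoz2. With array weights, Fhl1 gave 0.054 in untrained mice and -0.23 for the interaction, Ankrd1 -0.045 in trained mice, Tcap -0.025 for training in transgenic mice and Myoz2 -0.025 for averaged training. Ankrd1 in trained mice was -0.017 with a constant of 1 and -0.041 on its second probe set, and Myoz1's second probe set gave 0.032 for training in wild-type mice and -0.066 for the interaction. Without those 2 arrays, Myoz2 was at 0.024 for training in transgenic mice and Csrp3 at 0.058 for training in wild-type mice. With 1 array left out, the transgenic difference in trained mice ran from -0.38 to 0.38 for Ankrd1 and from -7.1e-05 to 0.11 for Tcap. Training in transgenic mice ran from -0.34 to 0.17 for Myoz2 and from -0.056 to 0.061 for Tcap, and averaged training from -0.023 to 0.23 for Myoz2. Training in wild-type mice ran from -0.23 to 0.058 for Csrp3, from -0.075 to 0.20 for Ankrd2, from -0.66 to 0.0090 for Ankrd1 and from -0.28 to 0.059 for Xirp1. The Fhl1 interaction ran from -0.11 to 0.23, and Ankrd1 in trained transgenic against untrained wild-type mice from -0.65 to 0.11.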

Other observations

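Summed markers of each other cell type listed overlapped between all 4 groups. The summed intensity of the 5 adipocyte markers on the array, led by Fabp4, ran from 2827 to 11735 in TG trained mice (median 3385) and from 4743 to 6787 in TG untrained mice (median 6024), against 4224 to 10148 in WT trained mice (median 5396) and 3272 to 9661 in WT untrained mice (median 5623). For 7 fibroblast and tendon markers, of which the tendon factor Scx was under the filter, the sums ran from 5444 to 7314 in TG trained and from 6377 to 6915 in TG untrained mice, against 5623 to 7320.3 in WT trained and 4336 to 7023 in WT untrained mice. Of 4 T cell markers, Cd3e and Cd3g were under the filter, and of 5 macrophage markers, Cd68 was.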
